A study of Mus musculus with 6 samples.

Results

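The spliceosome and SR protein genes are 62 of the 21853 protein-coding genes of the mouse annotation (GENCODE, GRCm38). They were chosen by symbol alone, as genes whose names mark them as Sm, LSm, snRNP, SF3a, SF3b, PRPF, U2AF or SRSF proteins. The symbol rule uses no measured value, but it was chosen with earlier results of these data known. H3K27ac, the acetylation of lysine 27 of histone H3, was mapped by ChIP-seq in mouse embryonic stem cells (mESCs) of the line E14Tg2A, which carry Cre recombinase at Rosa26 and a puromycin resistance gene joined to Oct4 through an internal ribosome entry site. The cells were grown in N2B27 medium with LIF and the inhibitors PD0325901 and CT-99021, and formed 3 groups of 2 replicates: a DMSO control, NVP-2 (100 nM), an inhibitor of the elongation kinase CDK9, and actinomycin D (ActD, 800 nM), which binds DNA and blocks RNA polymerases, each inhibitor given for 120 min. Every sample also received chromatin of HEK293T, a human cell line, as a spike-in. The values below come from the authors' single list of 22973 peaks in control cells, which pools both control replicates and gives only a chromosome, a start and an end. No peak height, depth or replicate error can therefore be read from it, no difference was tested, and the treated libraries were not analysed here.

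The spliceosome removes introns from pre-mRNA. It is built anew on each intron from small nuclear ribonucleoproteins (snRNPs): U1 recognises the 5′ splice site, U2 pairs with the branch site, and the tri-snRNP of U4, U6 and U5 brings the RNAs and proteins of the catalytic centre. A ring of Sm proteins surrounds U1, U2, U4 and U5 snRNA, and a ring of the related LSm proteins holds the end of U6. SR proteins, which carry domains rich in arginine and serine, bind exons and help U1 and U2AF to find the splice sites. Most of these genes are used by nearly every cell, and H3K27ac is found at promoters and enhancers in use.

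Control H3K27ac peaks marked nearly all of these promoters. A promoter was taken as ±1 kb around the transcription start site (TSS) of each gene's longest isoform, measured by genomic span, and was called marked where a peak overlapped it by at least 1 bp. By this rule 59 of 62 promoters were marked, a share of 95.2% (95% Wilson interval 86.7 to 98.3%), against 48.8% of all protein-coding genes. All 11 SR, all 11 LSm, all 7 Sm core, all 13 tri-snRNP, B complex and catalytic step genes and all 3 genes of the minor spliceosome were marked, as were 10 of 11 genes of the U2 snRNP and U2AF and 4 of 6 genes of the U1 snRNP and its associated proteins. The unmarked genes were Snrpc, Prpf39 and Sf3b5. In 56 genes a peak contained the TSS, a share of 90.3% (80.5 to 95.5%) against 44.2% of all protein-coding genes, and at least 1 isoform had a marked promoter for 60 genes, or 96.8% (89.0 to 99.1%), against 51% of all. These intervals treat genes as independent counts and leave out every other source of error.

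**Figure D1:**
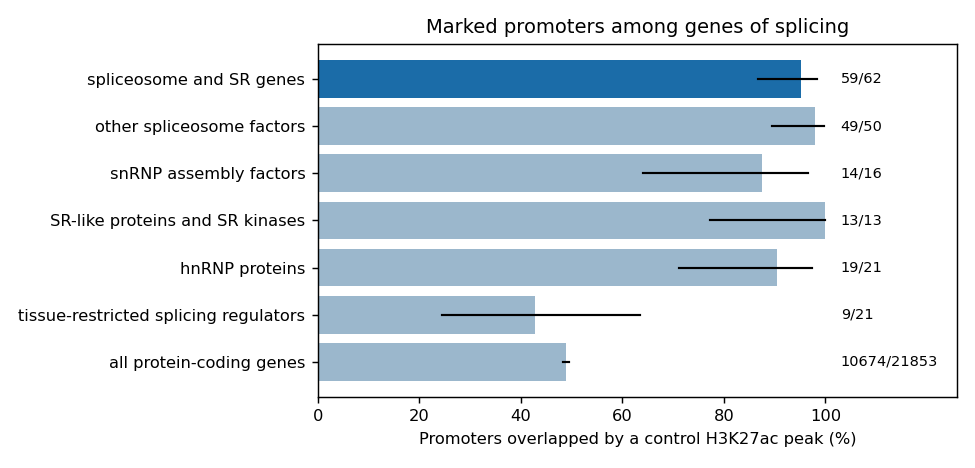
Share of promoters overlapped by a control H3K27ac peak (x axis, %) for the spliceosome and SR genes, 5 further groups of splicing genes and all protein-coding genes, with 95% Wilson intervals as lines and the counts at the right. The bar of the spliceosome and SR genes reaches 95.2% and that of all protein-coding genes 48.8%.

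Promoters of some genes are printed here, chosen for matches to short words or for the width or absence of their peak. Windows from 250 bases before to 50 bases after the TSS were taken from RefSeq (GRCm38.p6), which held one for 51 of the 62 genes; those for which no window was printed or searched included Lsm1, Lsm4, Lsm12, Prpf18, Sf3b4, Sf3b5, Snrnp40, Snrpb, Snrpd1 and U2af2. The RefSeq TSS lay within 200 bases of the GENCODE TSS used for the peaks in 44 of the 51 genes. That of the Srsf10 window lay 324 bp from it. In all, 8 short words were searched on both strands. CCGGAAG is the core of sites of ETS factors, GCATGCGC of the factor NRF1 and AAGATGGC of the factor YY1. TCGCGAGA is part of a longer palindromic element bound by the factor BANP. GGGCGG is the box bound by factors of the SP family, and CCAAT is bound by the complex NFY. TATAAA stands for the core promoter box of that name. CACGTG is the E-box of factors such as MYC and USF. None of the words contains another, but matches may share bases, and capitals mark matches on either strand. A match is a description of the letters and does not show that a factor binds there.

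First come 5 windows of marked genes. That of Snrnp70 (chr7:45395693-45395992, minus strand) is shown for its 6 NRF1 matches, that of Srsf5 (chr12:80945249-80945548, plus strand) for its 2 ETS matches under a peak longer than the gene, that of Srsf10 (chr4:135855821-135856120, plus strand) for the BANP word, found here on both strands in 2 overlapping matches, that of Lsm7 (chr10:80855160-80855459, minus strand) for the YY1 match 20 bases after the TSS, and that of Snrpa (chr7:27196222-27196521, minus strand) for the widest peak.
Snrnp70: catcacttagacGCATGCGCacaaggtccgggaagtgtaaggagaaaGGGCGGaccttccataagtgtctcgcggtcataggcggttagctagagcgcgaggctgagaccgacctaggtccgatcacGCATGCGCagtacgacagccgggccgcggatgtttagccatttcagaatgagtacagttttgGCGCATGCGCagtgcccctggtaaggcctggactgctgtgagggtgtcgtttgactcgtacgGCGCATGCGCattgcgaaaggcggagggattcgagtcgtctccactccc
Srsf5: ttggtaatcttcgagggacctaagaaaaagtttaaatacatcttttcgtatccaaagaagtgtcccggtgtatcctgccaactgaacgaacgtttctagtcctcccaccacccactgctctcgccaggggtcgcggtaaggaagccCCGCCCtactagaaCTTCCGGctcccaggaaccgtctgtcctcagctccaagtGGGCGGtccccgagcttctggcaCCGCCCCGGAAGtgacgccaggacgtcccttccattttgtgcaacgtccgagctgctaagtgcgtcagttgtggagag
Srsf10: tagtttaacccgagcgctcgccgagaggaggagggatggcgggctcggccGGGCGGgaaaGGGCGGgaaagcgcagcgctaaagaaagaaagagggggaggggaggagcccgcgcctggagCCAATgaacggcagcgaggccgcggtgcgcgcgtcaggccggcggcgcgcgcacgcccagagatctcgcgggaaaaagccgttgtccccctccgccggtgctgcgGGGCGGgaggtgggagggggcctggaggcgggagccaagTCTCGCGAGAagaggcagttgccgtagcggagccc
Lsm7: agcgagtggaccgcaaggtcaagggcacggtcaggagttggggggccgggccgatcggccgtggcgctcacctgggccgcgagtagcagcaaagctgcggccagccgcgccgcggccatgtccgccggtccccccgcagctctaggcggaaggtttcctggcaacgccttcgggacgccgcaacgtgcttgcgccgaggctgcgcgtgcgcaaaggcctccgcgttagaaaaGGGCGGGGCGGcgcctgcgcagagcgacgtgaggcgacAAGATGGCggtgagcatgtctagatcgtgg
Snrpa: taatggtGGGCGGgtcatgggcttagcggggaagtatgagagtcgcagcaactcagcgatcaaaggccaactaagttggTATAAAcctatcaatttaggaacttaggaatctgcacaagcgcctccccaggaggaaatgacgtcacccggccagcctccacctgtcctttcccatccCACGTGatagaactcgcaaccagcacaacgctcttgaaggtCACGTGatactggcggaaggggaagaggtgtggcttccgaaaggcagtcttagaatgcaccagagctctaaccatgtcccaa

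Next come the windows of Srsf12 (chr4:33209022-33209321, plus strand), the marked gene with the narrowest peak, and of the unmarked genes Prpf39 (chr12:65036084-65036383, plus strand) and Snrpc (chr17:27839837-27840136, plus strand). The window of Snrpc belongs to a RefSeq TSS 1937 bp downstream of the GENCODE TSS that left this gene unmarked, and it lies inside a peak.
Srsf12: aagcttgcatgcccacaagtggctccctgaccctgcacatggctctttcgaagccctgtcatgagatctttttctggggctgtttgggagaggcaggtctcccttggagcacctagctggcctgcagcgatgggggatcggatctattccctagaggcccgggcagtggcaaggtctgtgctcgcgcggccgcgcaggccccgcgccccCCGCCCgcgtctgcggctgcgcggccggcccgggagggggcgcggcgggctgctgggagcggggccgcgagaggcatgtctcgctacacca
Prpf39: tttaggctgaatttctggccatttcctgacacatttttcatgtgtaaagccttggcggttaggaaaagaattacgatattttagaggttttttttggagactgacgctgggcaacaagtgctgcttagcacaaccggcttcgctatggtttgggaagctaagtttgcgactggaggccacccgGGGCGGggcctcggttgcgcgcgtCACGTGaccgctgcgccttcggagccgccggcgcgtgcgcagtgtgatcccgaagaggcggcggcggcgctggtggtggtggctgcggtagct
Snrpc: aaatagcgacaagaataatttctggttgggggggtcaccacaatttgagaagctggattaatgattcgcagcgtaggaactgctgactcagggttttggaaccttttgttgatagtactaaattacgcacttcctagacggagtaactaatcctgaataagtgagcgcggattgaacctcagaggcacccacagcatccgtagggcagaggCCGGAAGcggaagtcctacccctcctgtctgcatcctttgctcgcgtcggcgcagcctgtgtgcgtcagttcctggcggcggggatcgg

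The 59 marked promoters lay on 59 different peaks, 1 peak for each. The narrowest peak measured 556 bp and the widest 20612 bp, and the median width was 2295 bp (quartiles 1825 and 4342 bp), against a median of 2174 bp (quartiles 1558 and 4832.5 bp) for the peaks of all 10674 marked protein-coding genes. Of the 59 genes, 13 or 22.0% lay above the upper quartile of all marked genes and 8 lay below the lower quartile. Peaks of at least 10 kb covered 4 promoters, or 6.78% (2.67 to 16.2%), against 10.8% of all marked genes, and peaks under 1 kb covered 3, or 5.08% (1.74 to 13.9%), against 10.6%. The authors merged peaks within 2 kb of each other, so a wide peak can be made of several.

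**Figure D2:**
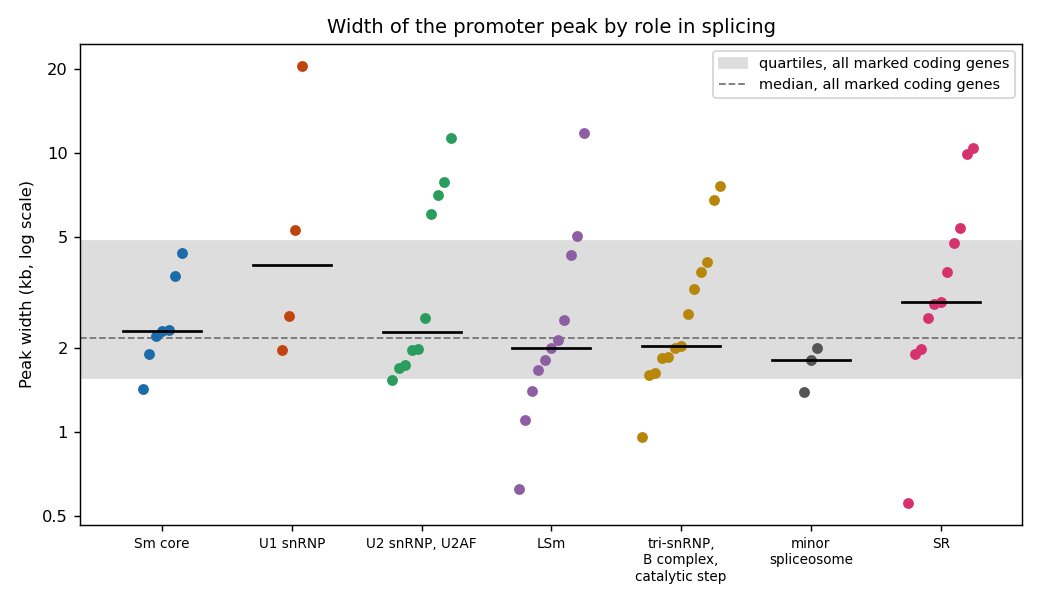
Width of the promoter peak (y axis, kb, log scale) of each of the 59 marked genes by role, 1 point per gene, with the median of each role as a bar and the quartiles and median of all marked protein-coding genes as a grey band and a dashed line. Most points lie inside the band from 1558 to 4832.5 bp, with single genes such as Snrpa at 20612 bp and Srsf12 at 556 bp far from the rest of their role.

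The 7 Sm proteins, which form the ring around U1, U2, U4 and U5 snRNA, had peaks between 1420 and 4371 bp wide (median 2295 bp), and none lay above the upper quartile of all marked genes. Snrpf had the narrowest at 1420 bp, followed by Snrpg at 1895, Snrpd3 at 2205, Snrpe at 2295, Snrpd2 at 2325, Snrpb at 3614 and Snrpd1 at 4371 bp. In all 7 genes the peak reached farther downstream than upstream of the TSS, with a median of 1390 bp downstream and 487 bp upstream. The peak of Snrpd1 reached 4219 bp downstream and 151 bp upstream, and that of Snrpf began only 29 bp upstream of the TSS and reached 1390 bp into the gene.

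The U1 snRNP genes held both the widest peak and unmarked promoters. Snrpa encodes U1-A, the protein that binds a stem loop of U1 snRNA, and its peak (chr7:27185338-27205949) measured 20612 bp, wider than those of 96.5% of all marked protein-coding genes. It reached 9678 bp upstream and 10933 bp downstream of the TSS, covered the whole gene of 9265 bp and 1669 bp past its 3′ end, and included the promoter of BC024978 on the opposite strand, 490 bp downstream of the Snrpa TSS. Snrnp70, whose product U1-70K binds another stem loop of U1 snRNA, had a peak of 5317 bp (chr7:45391795-45397111) that ended in intron 4, 3947 bp into the gene. Prpf40b encodes a protein related to a yeast factor that bridges the 5′ splice site and the branch site, and had a peak of 1961 bp.

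Snrpc encodes U1-C, which steadies the pairing of U1 with the 5′ splice site, and its promoter was unmarked at the TSS used. The TSS of its longest isoform lay at chr17:27838150, and the nearest peak, of 1378 bp (chr17:27839391-27840768), began 1241 bp downstream of it. The TSSs of the 3 other isoforms of Snrpc, at 27840087, 27840135 and 27840155, lay inside that peak, as did the RefSeq start of the gene at 27840028. Prpf39 encodes a U1-associated protein and was unmarked by every definition tried. Its nearest peak began 28982 bp downstream of the TSS at chr12:65036333, past the end of the gene, and measured 11618 bp (chr12:65065315-65076932) over the promoters of Fkbp3 and Fancm. Within ±1 kb of its TSS the sequence had 49.2% GC and an observed to expected CpG ratio of 0.820, against medians of 51.9% and 0.699 over the 62 genes.

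Of the 11 genes of the U2 side, 10 were marked, with a median width of 2274 bp and 4 above the upper quartile of all marked genes. Sf3b1, whose product clamps the branch site helix and is often mutated in myelodysplastic syndromes, had a peak of 11339 bp (chr1:55020659-55031997), 4516 bp upstream and 6822 bp downstream, which ended in intron 1. Both subunits of U2AF were also under wide peaks: U2af2, which binds the polypyrimidine tract, at 7907 bp (chr7:5060401-5068307), and U2af1, which reads the AG at the 3′ splice site, at 6069 bp (chr17:31653619-31659687). Their peaks reached 6164 and 5273 bp downstream of the TSS and 1742 and 795 bp upstream. The peak of Sf3b4 measured 7093 bp (chr3:96169618-96176710), covered 83.7% of the gene, ended in exon 5 and also overlapped Mtmr11 upstream.

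The other SF3 genes had peaks between 1534 and 2573 bp. These were the genes of the whole SF3a complex, Sf3a1 at 1534, Sf3a3 at 1695 and Sf3a2 at 1975 bp, and of the SF3b proteins Sf3b6 at 1744, Sf3b3 at 1964 and Sf3b2 at 2573 bp. The large SF3b scaffold protein gene Sf3b3 spans 36538 bp, and its promoter peak covered 3.09% of it. Sf3b5, a small SF3b subunit, was unmarked in GENCODE, where it is a single exon at chr10:13005343-13009183. A peak of 1764 bp (chr10:13007837-13009600) overlapped the 3′ part of this exon, beginning 2494 bp downstream of the annotated start, and ended past the exon. RefSeq begins the gene at 13008450, inside that peak. The ±1 kb around the GENCODE start had the lowest GC content of the 62 genes (39.2%) and the lowest CpG ratio (0.130), and the next lowest CpG ratio, 0.229, was that of the GENCODE start of Snrpc.

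The 11 LSm genes were all marked, with a median width of 1993 bp and 2 genes above the upper quartile of all marked genes. The proteins LSm2 to LSm8 form the ring on U6 snRNA, and their genes had peaks of 1101 bp (Lsm5, chr6:56703921-56705021), 1993 bp (Lsm8), 2138 bp (Lsm6), 2518 bp (Lsm3), 4313 bp (Lsm7), 5037 bp (Lsm2) and 11817 bp (Lsm4). The peak of Lsm4 (chr8:70670897-70682713) was the second widest of the 59 and ran from 2351 bp upstream of the TSS to 3961 bp past the 3′ end. That of Lsm2 (chr17:34981173-34986209) also covered its gene and 318 bp beyond. Lsm1, whose product takes the place of LSm8 in the cytoplasmic ring of mRNA decay, had a peak of 1807 bp, and Lsm12 one of 1664 bp.

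Lsm10 and Lsm11 encode the ring proteins particular to the U7 snRNP, which processes histone mRNA and takes no part in splicing. Both had peaks that began downstream of the GENCODE TSS, 1 bp downstream for Lsm10 (chr4:126096624-126098024, 1401 bp) and 77 bp downstream for Lsm11 (chr11:45944234-45944858, 625 bp). Only Srsf12 shared this position among the 59 genes, with a peak that began 19 bp downstream of the TSS. These 3 genes were the ones lost when the TSS itself had to lie in a peak. The TSS of the RefSeq window of Lsm10, 30 bp from the GENCODE TSS, lay inside its peak, but the RefSeq start of the gene at 126096562 lay upstream of it.

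Tri-snRNP, B complex and catalytic step genes were all marked, mostly by peaks of ordinary width, with a median of 2038 bp over 13 genes. Prpf8, which encodes the U5 protein at the heart of the catalytic centre, had a peak of 1602 bp that began 74 bp upstream of the TSS. Snrnp200, which encodes the helicase Brr2 that unwinds U4 from U6, had one of 1627 bp. Prpf3 and Prpf31 of the U4/U6 particle had 1843 and 1858 bp, and Prpf19, a ubiquitin ligase of the activated spliceosome, had 1999 bp. Snrnp27 had 2038 bp, Prpf4b, a kinase of the B complex, 2647 bp, Prpf38b 3250 bp, Prpf6, a scaffold of the tri-snRNP, 3749 bp, and Snrnp40, a U5 protein, 4059 bp.

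The extremes of this group differed in the side on which they reached out. Prpf38a, a protein of the B complex, had the widest peak at 7663 bp (chr4:108577659-108585321), of which 5985 bp lay upstream and 1677 bp downstream of the TSS. Prpf4, another U4/U6 protein, had 6802 bp (chr4:62403180-62409981), with 5617 bp upstream and 1184 bp downstream. Prpf18, a factor of the second catalytic step, had the narrowest, 960 bp (chr2:4651207-4652166), with 80 bp upstream and 879 bp downstream. The 3 proteins of the minor spliceosome, which removes a rare class of introns, had genes with peaks of 1393 bp (Snrnp25, chr11:32204768-32206160), 1806 bp (Snrnp48) and 1992 bp (Snrnp35).

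The 11 SR genes had the highest median width after the U1 group, 2926 bp, and ranged from 556 to 10421 bp. Srsf5 stood at the top with 10421 bp (chr12:80944535-80954955), 969 bp upstream and 9451 bp downstream, which covered the gene of 5004 bp and 4448 bp past its 3′ end, into Slc10a1. Srsf3, the smallest SR protein, had a gene under a peak of 9963 bp (chr17:29030721-29040683) that reached 8055 bp downstream into intron 3 of a gene of 10746 bp. Srsf10, which acts as a splicing repressor when it loses its phosphates in heat shock, had 5383 bp, and Srsf6 had 4767 bp, of which 3734 bp lay upstream. Between these and the lower end came Srsf2 at 3759, Srsf1 at 2926, Srsf4 at 2868, Srsf7 at 2556, Srsf11 at 1979 and Srsf9 at 1897 bp. Srsf12 had the narrowest peak of all 59 genes, 556 bp (chr4:33209010-33209565), wholly downstream of its GENCODE TSS and ending in intron 1. The RefSeq TSS of the printed Srsf12 window, 281 bp from the GENCODE TSS, lay inside this peak, whereas the RefSeq start of the gene was the same as the GENCODE TSS.

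**Figure D3:**
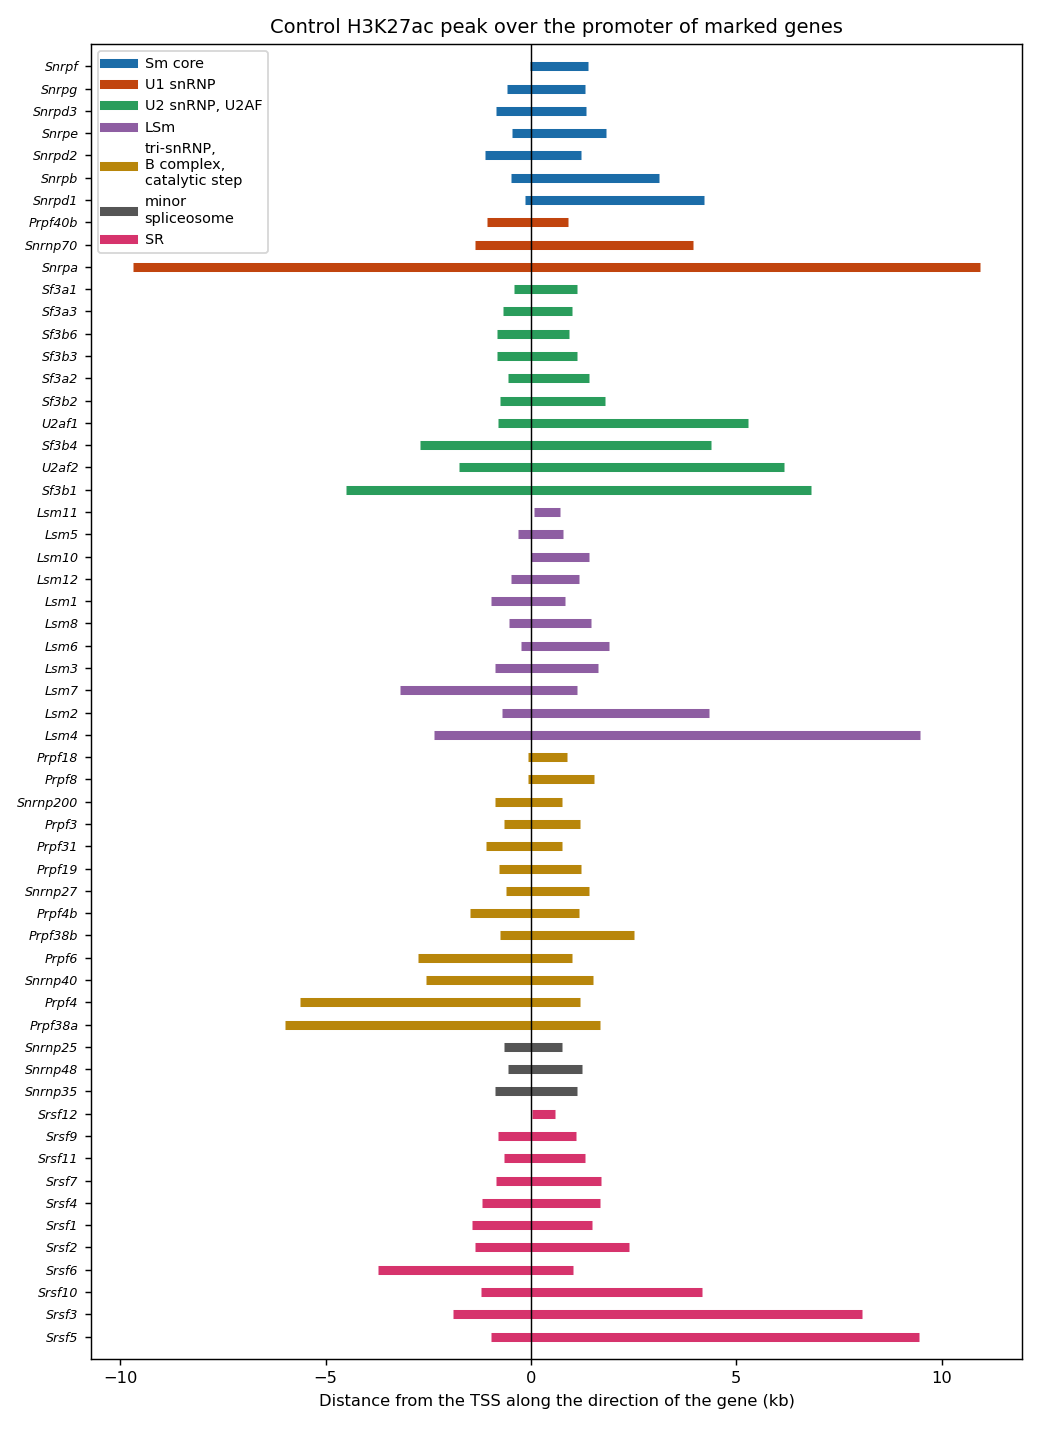
Extent of the promoter peak of 58 of the 59 marked genes along the direction of transcription, as distance from the TSS (x axis, kb, negative upstream), with 1 bar per gene coloured by role and sorted by width within each role. In 47 of the 58 genes the bar reaches farther to the right of the TSS than to the left, and Prpf38a and Prpf4 reach far to the left.

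Most of these peaks leaned into the gene. The peak reached farther downstream than upstream of the TSS in 47 of 59 genes, or 79.7% (67.7 to 88.0%), against 67.6% of all marked protein-coding genes. The median reach was 835 bp upstream (quartiles 567 and 1400 bp) and 1390 bp downstream (quartiles 1103.5 and 2147 bp), against 841 and 1172 bp over all marked genes. All 7 Sm genes, all 3 genes of the minor spliceosome, 10 of 11 SR genes, all 10 marked genes of the U2 group, 9 of 11 LSm genes, 2 of 4 marked U1 genes and 6 of 13 tri-snRNP, B complex and catalytic step genes leaned downstream.

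The downstream edge lay in an intron in 52 of 59 genes, or 88.1% (77.5 to 94.1%), against 82.4% of all marked genes. It fell in intron 1 in 31, or 52.5%, against 64% of all marked genes. It fell in intron 2 in 15, in intron 3 in 4, in intron 4 in Snrnp70 and in intron 5 in U2af2. It lay in an exon in Lsm10 (exon 2), Srsf2 (exon 3) and Sf3b4 (exon 5). In Lsm2, Lsm4, Srsf5 and Snrpa the peak covered the isoform from TSS to 3′ end, 4 of 59 genes or 6.78% (2.67 to 16.2%), against 5.67% of all marked genes. The width of the peak hardly followed the span of the gene: Spearman's rho was −0.12 over the 59 genes and −0.11 over all 10674 marked genes, as a description across genes that share 1 list.

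Further peaks over the isoform were found in 7 of the 59 genes, or 11.9% (5.87 to 22.5%), against 28.8% of all marked protein-coding genes, whose isoforms were not matched in span. Sf3b3 had 2 of them, 28293 and 33610 bp downstream of its TSS, the farther one 7595 bp wide and reaching past its 3′ end. Snrnp70 and Sf3b2 had one at the 3′ end, of 3675 and 1510 bp, and U2af2 had one of 1938 bp there. In Snrnp70, Sf3b2 and U2af2 most of this peak lay past the 3′ end. In Srsf11, Snrpd3 and Prpf6 the second peak lay 3989, 8388 and 33476 bp downstream of the TSS and measured 1862, 667 and 2378 bp.

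Sharing of a peak with any other protein-coding promoter was near the background, but sharing with a head-to-head neighbour was above it. Neither gap was tested. The peak also covered the promoter of another protein-coding gene in 18 of 59 genes, or 30.5% (20.3 to 43.1%), against 26.5% of all marked genes, and no peak covered more than 1 other. All of these neighbours lay on the opposite strand. In 14 genes, or 23.7% (14.7 to 36.0%), the neighbour was head to head, with its TSS upstream by at most 1 kb, against 13.6% of all marked genes. The median distance between paired TSSs was 118.5 bp.

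Of the head-to-head pairs, Lsm1 was the closest to its neighbour. Its TSS lay 1 bp from that of Bag4, a cochaperone gene, and that of Srsf11 lay 23 bp from that of Lrrc40. Lsm3 lay 40 bp from Xpc, whose product recognises DNA damage in nucleotide excision repair, Prpf31 56 bp from Tfpt and Sf3a1 57 bp from Ccdc157. Lsm7 lay 66 bp from Sppl2b, an intramembrane protease gene, Prpf38a 118 bp from Orc1, a subunit of the origin recognition complex, and Snrnp200 119 bp from 1810024B03Rik. Prpf4 lay 155 bp from Cdc26, a subunit of the anaphase-promoting complex, and Srsf7 155 bp from Ttc39d. Among the wider spaced pairs were Snrnp40 with Zcchc17 at 189 bp, Snrpd2 with Qpctl at 431 bp and Srsf2 with Mfsd11 at 726 bp. In Prpf6, Sf3a2, Sf3b3 and Snrpa the peak covered an opposite promoter that was not head to head by this rule, those of Samd10, Plekhj1, Cog4 and BC024978.

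Where a peak leaned upstream, a head-to-head neighbour was often there. Of the 12 genes whose peak reached at least as far upstream as downstream, 8 or 66.7% had one, among them Lsm1, Lsm7, Prpf4, Prpf31, Prpf38a, Snrnp40 and Snrnp200, and of the 47 genes that leaned downstream 6 or 12.8% did. Over all marked protein-coding genes the same shares were 24.9% of 3456 and 8.12% of 7218. The peaks of Prpf4 and Prpf38a, with the longest upstream reach after Snrpa, overlapped Cdc26 and Orc1. The genes that leaned upstream without such a neighbour were Srsf6, Prpf40b, Prpf4b and Prpf6.

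The printed windows belong to a set of CpG-rich promoters. In the RefSeq windows the observed to expected CpG ratio had a median of 0.921 over 51 genes, against 0.797 over 8380 marked, 0.259 over 8134 unmarked and 0.603 over all 16514 protein-coding genes with a window. The median GC content was 58.7%, against 61.7% over marked, 50.3% over unmarked and 57% over all genes. Set beside marked genes, these windows thus had the higher CpG ratio and the lower GC content, while beside unmarked and all genes both were higher. Within ±1 kb of the GENCODE TSS, where all 62 genes could be read, the medians were 0.699 for the CpG ratio and 51.9% for GC, against 0.641 and 54.3% over marked genes. The GC-richest of the 62 was Srsf2, at 68.5%.

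Of the 8 words, the ETS core had the widest gap in percentage points between these windows and those of all marked genes, a gap that was not tested. It was found in 19 of 51 windows, or 37.3% (25.3 to 51.0%), against 20.8% of windows of all marked genes and 12.4% of all windows. Among its holders were Snrpe, Snrpg and Snrpc of the snRNPs, Sf3a1, Sf3a2, Sf3a3, Sf3b2, Sf3b3 and Sf3b6 of the U2 side, Prpf6, Prpf19, Snrnp27 and Snrnp200 of the later complexes, and Srsf4, Srsf5, Srsf7 and Srsf11. Srsf5, Sf3b6, Snrpe and Lsm5 had 2 matches each. The matches started at a median of 70 bases before the TSS.

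The other words followed. NRF1 was matched in 5 windows (9.80%), against 6.12% of marked and 3.77% of all windows, and the 6 matches of Snrnp70 fell in 4 places of the window printed above, since 2 of these places hold overlapping matches on opposite strands. YY1 was matched in Lsm7, Prpf38b and Sf3a1 (5.88%, against 5.32% and 3.28%), at −1 to 30 bases from the TSS, and the BANP word in Snrpg, Srsf4 and Srsf10 (5.88%, against 2.88% and 1.58%). At least 1 of the ETS, NRF1, YY1 and BANP words was found in 26 windows or 51.0%, against 31.1% of marked and 18.8% of all windows. This pool of 4 words was not planned, and 19 of its 26 windows held the ETS core. SP was matched in 74.5%, against 68.6% and 48.4%, and NFY in 41.2%, against 39.0% and 38.7%. TATA was matched in 9.80%, against 6.10% and 12.9%, and the E-box in 7.84%, against 10.8% and 8.07%.

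**Figure D4:**
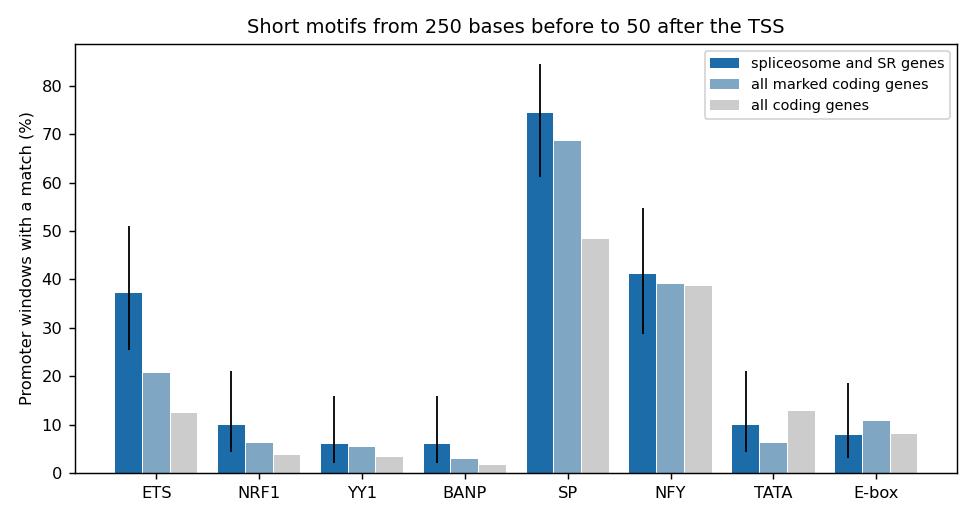
Share of RefSeq promoter windows with at least 1 match to each word (y axis, %) in the 51 spliceosome and SR genes with a window, all 8380 marked and all 16514 protein-coding genes, with 95% Wilson intervals on the first. The ETS bar stands at 37.3% against 20.8% and 12.4%, and the NFY bars stand at 41.2%, 39.0% and 38.7%.

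Further genes of splicing were set beside these. Other factors of the spliceosome, such as helicases and proteins of the catalytic complexes, were marked in 49 of 50 cases, or 98.0% (89.5 to 99.6%), with a median width of 1991 bp, and the unmarked one was Slu7, a factor of the second catalytic step whose nearest peak lay 6490 bp away. Assembly factors of snRNPs were marked in 14 of 16 cases, with a median width of 1960.5 bp, and Coil, the gene of the Cajal body protein coilin, and Gemin7, of the SMN complex, were unmarked, with the nearest peak 14240 and 12649 bp away. SR-like proteins and SR kinases were marked in 13 of 13 cases, with a median width of 2304 bp. Tissue-restricted splicing regulators, many of them neuronal, were marked in 9 of 21 cases, or 42.9% (24.5 to 63.5%), near the background of 48.8%. With peaks of at least 1 kb alone, 23.8% of them were marked, against 43.7% of all protein-coding genes. Those marked were Celf5, Elavl4, Esrp2, Mbnl3, Nova1, Nova2, Ptbp2, Rbm20 and Srpk3, with peaks from 598 bp to the 25259 bp of Srpk3.

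The hnRNP genes, whose products coat nascent RNA and often oppose SR proteins, had the wider peaks. They were marked in 19 of 21 cases, or 90.5%, with a median width of 5491 bp against 2295 bp for the spliceosome and SR genes. Of the 19, 11 or 57.9% lay above the upper quartile of all marked genes, against 22.0% of the spliceosome and SR genes. The peak of Hnrnpa1 measured 39715 bp and that of Hnrnpc 21260 bp, both wider than that of Snrpa. Unmarked were Hnrnpm, whose nearest peak lay 1384 bp away and which had another isoform with a marked promoter, and Hnrnpul2.

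**Figure D5:**
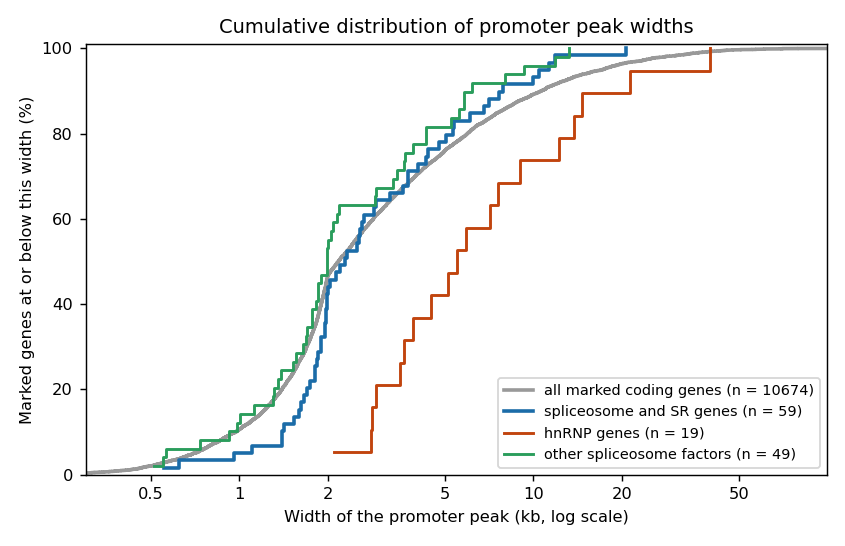
Cumulative share of marked genes (y axis, %) at or below a given width of the promoter peak (x axis, kb, log scale) for all marked protein-coding genes, the spliceosome and SR genes, the hnRNP genes and other spliceosome factors. The curve of the hnRNP genes lies to the right, with a median of 5491 bp, while that of the spliceosome and SR genes crosses its median at 2295 bp, close to all marked genes at 2174 bp.

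As a check of the labelled cell type, 9 of 12 pluripotency markers were marked, with widths of 17768 to 79196 bp, and 3 of 16 markers of other lineages (Eomes, Gata4 and Gata6) were. Klf4, Esrrb and Dppa3 were the unmarked pluripotency markers, and Esrrb had another isoform with a marked promoter. Except for Snrpa at 20612 bp, every peak of the spliceosome and SR genes was narrower than the narrowest of the 9 marked pluripotency markers.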

How the data were processed

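H3K27ac ChIP-seq was performed on mESCs (control, NVP-2 and ActD, 2 replicates each, 6 samples). Per the paper's methods and the submitters' processing notes, the authors trimmed reads with Cutadapt, aligned them with BWA to a combined mouse (mm10) and human genome, dropped duplicates (Picard 2.9.1) and reads of low mapping quality (SAMtools 1.4), used LanceOtron for peak calling, merged peaks within 2 kb, and filtered them by height after subtraction of the input and by distance to ATAC-seq summits. The deposited list for control cells pools both replicates and holds positions in base pairs, with no count, score or depth. It was used as deposited, and its starts, read as counted from 0, are printed counted from 1. Whether a promoter without a listed peak lacked signal or failed a filter cannot be read from it. A wide peak may join several, since merging precedes the list.

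Peaks were overlapped with GENCODE M21 (GRCm38), an earlier release than the authors named. Each gene was represented by the TSS of its isoform of longest genomic span, and genes of the symbol rule were the members; an SR gene of the planned list, Srsf8, is not in this annotation. Reach is the distance from the TSS to each edge of the peak along the gene. Sequence windows came from RefSeq (GRCm38.p6), and the CpG ratio is the observed number of CpG over that expected from the C and G content. All 51 windows used were identical to the genome on the strand of the gene.

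The members, the lists of other splicing genes and the cell type markers were chosen with earlier results of these data known. Every member enters the counts, and 1 marked member is not reported here by name; coordinates were given for the 10 widest and 5 narrowest peaks, for unmarked genes and for genes called differently by an alternative. Of the lists, the genes of the less frequent call were named, and Hnrnpa1, Hnrnpc, the marked pluripotency range, the coordinates of Lsm2 and Snrnp70, the split by direction of reach and the shares of genes by downstream edge and by further peaks were chosen after their values were seen. With 1 pooled list there is no replicate error, and no test was made; 95% Wilson intervals cover counting error only. The alternatives were windows of ±500 bp, ±2 kb or the TSS alone, other isoforms, an overlap of 500 bp, peaks of at least 1 kb, genes without another coding TSS within 2 kb, each peak counted once, lincRNA promoters as neighbours, a sequence window of ±1 kb and the RefSeq gene start. On simulated data, the overlap code called 2186 of 2186 genes as a direct search did, and recovered both reaches of 1989 of 1989 peaks and 2 of 2 planted motifs. The tools were pandas 2.3.3, numpy 2.4.6, matplotlib 3.10.9 and scipy 1.17.1 under Python 3.11.15. The treated libraries, peak heights and transcription data were not used here.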

Additional observations from a re-analysis of the deposited data

How the results depend on the processing

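Under 9 alternatives the share of marked promoters among the spliceosome and SR genes ran from 90.3% to 98.4%, while that of all protein-coding genes ran from 43.7% to 51.0%. The RefSeq gene start, an alternative chosen after seeing the data, gave 98.4%, since the starts of Snrpc and Sf3b5 then lay in a peak. Snrpc also became marked with a window of ±2 kb, with the longest spliced isoform and with any isoform. Lsm10, Lsm11 and Srsf12 lost the call when the TSS had to lie in a peak, and Lsm11, Prpf18 and Srsf12 when peaks under 1 kb were left out. Other spliceosome factors fell to 88.0% with the TSS itself and to 86.0% with peaks of at least 1 kb, and tissue-restricted regulators to 23.8% with peaks of at least 1 kb, under which 43.7% of all protein-coding genes were marked. The median width stayed between 2171.5 and 2421.5 bp, the upstream reach between 754 and 857 bp, the downstream reach between 1330.5 and 1411.5 bp, and 18 to 24 genes shared their peak with another promoter. The median GC content was 51.9% over the GENCODE TSS ±1 kb and 58.7% over the RefSeq windows; the windows differ in length, in the source of the TSS and in the genes covered (62 and 51), and the cause was not tested.

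No paired analysis was possible because the peak list is 1 pool of the control replicates, without treated samples, and so no replicate was left out either. The list gives no depth: a promoter called unmarked is one without a listed peak, whatever its signal below the authors' thresholds, and neither peak heights nor changes after NVP-2 or ActD are read from it. Genes that share a peak are not independent. Peaks within 2 kb were merged before deposit, and the part of merging in any single width was not tested. Among genes without another coding TSS within 2 kb, 42 of 45 were marked, against 43.8% of all protein-coding genes so placed.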

Other observations

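Some genes with related symbols fall outside the symbol rule and were looked up by name after the values above were seen. Snrpa1 and Snrpb2 are among them but were already counted with the other spliceosome factors. Snrpa1, which encodes the U2-specific protein U2-A′, had a promoter peak of 1889 bp, and Snrpb2, for its partner U2-B″, one of 986 bp. U2af1l4, a relative of U2af1, had one of 6460 bp, close to the 6069 bp of U2af1 itself. Lsm14a and Lsm14b, whose products belong to cytoplasmic RNA granules, had peaks of 3485 and 1010 bp. Snrpn, an imprinted relative of the Sm gene Snrpb, was unmarked at the TSS of its longest isoform, 134739 bp from the nearest peak, although another of its isoforms had a marked promoter.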
